A study of Paralichthys olivaceus with 22 samples.

Results

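The kidney response of Japanese flounder (Paralichthys olivaceus) 12 h after an FKC preparation of Edwardsiella tarda was set against PBS at the same time. The members are the 4 arrays whose titles give E. tarda FKC and 12 h and the 4 arrays whose titles give PBS and 12 h, 8 of the 22 arrays of the series. The remaining 14 arrays hold both treatments at 6 h and a Streptococcus iniae FKC preparation at 6 h and 12 h. Kidney RNA of each sample was amplified to Cy3-labelled cRNA and hybridised to its own 1-colour Agilent array. FKC is the labels' term, and in fish vaccinology it commonly stands for formalin-killed cells. PBS, a salt buffer, was the control treatment. The labels state no bacterial strain, dose, route of treatment, or age of the fish. Samples carry a number within their group, but nothing says whether they are different fish. The p-values thus rest on a sample-to-sample spread that may be technical.

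The kidney of bony fish combines tubules that form urine with blood-forming and lymphoid tissue, and its front part, the head kidney, is a main site where phagocytes and B cells are made. E. tarda is a Gram-negative bacterium whose cell wall carries lipopolysaccharide, and S. iniae is Gram-positive. Cells of the innate immune system recognise such wall components through pattern recognition receptors and answer with waves of transcription that begin within hours, also when the bacteria are dead. The labels do not say which part of the kidney was taken. The tissue could not be checked against kidney or immune cell markers, because 0 of the 14478 contig and GenBank names in the files matched a name or accession in RefSeq's table of 30478 genes of assembly ASM2471397v2. Probes are therefore described in groups, and 2 that rose and 2 that fell are given by ID.

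On the array of 14481 probes, 8084 to 9357 gave a signal well above background in a sample of E. tarda FKC at 12 h, and 8195 to 9140 in a PBS sample of 12 h. Well above background is the scanner software's own flag for a spot clearly brighter than its background. Levels are log2 of the processed signal minus the 75th percentile of the array, so a value of 0 is the brightness of that percentile. Across the 11066 probes tested, pairs of E. tarda FKC arrays correlated at 0.939 to 0.972, pairs of PBS arrays at 0.961 to 0.976, and pairs across the groups at 0.884 to 0.913. All 4 E. tarda FKC arrays lay on slide 2 in row 1 and all 4 PBS arrays on slide 3 in row 2, each slide with its own scan time, so slide and treatment cannot be told apart between these groups. The S. iniae FKC arrays of 12 h lay in row 2 of slide 2, beside the E. tarda FKC arrays. Added control RNA measured by 7 E1A spike-in probes changed by -0.31 to -0.16 (log2) between PBS and E. tarda FKC. The smallest unadjusted p in limma was 0.0967, so 0 of the 7 reached 0.05. All 7 changed in the same direction, and p-values above 0.05 do not show that levels on the slides were equal.

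Against PBS, 1726 probes rose (15.6% of those tested) and 2250 fell (20.3%) at 12 h by limma with a Benjamini-Hochberg adjusted p under 0.05, in all 35.9%. In whole tissue, fewer cells of a type and less RNA per cell cannot be told apart. Rises reached further than falls, and background limits how far a fall can be measured. At 2-fold or more, 1039 probes rose (9.39%) and 1252 fell (11.3%), while at 4-fold or more 347 rose (3.14%) and 256 fell (2.31%). At 8-fold or more 147 rose (1.33%) and 56 fell (0.506%), and at 32-fold or more 41 rose and 3 fell, of which 15 and 1 were measured on all 8 arrays. The median change of all tested probes was -0.12 (log2), which scaling each array to its median moved to -0.01. Median scaling gave 2006 rises and 1794 falls, and 158 rises and 44 falls of at least 8-fold. The excess of falls over all calls thus turned with it, and the excess of rises among large changes did not. Quantile normalization kept the excess of falls, with 1732 rises and 2164 falls, as did the authors' deposited log2 values, with 1745 and 2177. Normexp background correction with quantile normalization, which adds an offset of 50 to the signals, gave 2031 rises and 2469 falls. It left 72 rises and 7 falls of at least 8-fold.

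Many of the largest folds rest on a side too dim to measure. Of the 147 rises of at least 8-fold, 71 were well above background on all 8 arrays, while 52 were not well above background on any PBS array. Of the 56 such falls, 16 were well above background on all 8 arrays and 15 on no E. tarda FKC array. Among probes measured on all 8 arrays, the largest rise was 8.48 (SE 0.51) on the log2 scale, the tenth 6.62 (SE 0.40), the 20th 4.73 (SE 0.22), the 50th 3.80 and the 100th 2.71. The largest fall was -6.10 (SE 0.38), the tenth -3.22 (SE 0.19), the 20th -2.70 (SE 0.20), the 50th -2.18 and the 100th -1.87. Among these probes the list of falls thus flattened earlier than that of rises. Asking for detection on all 8 arrays leaves out falls that ended in background and rises that began there. Its part in this shape was not tested.

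The groups did not overlap in 1463 of all 1726 rises and 1784 of all 2250 falls. Called probes were chosen for a difference that is large beside the spread, which itself favours such separation. The share without overlap over all tested probes is not given here. The 20 largest rises measured on all 8 arrays were chosen on the values shown here, and the groups did not overlap in 20 of them. Their E. tarda FKC values lay 3.95 to 8.68 above the probe's own PBS mean, with a median of 6.49, while the PBS values lay between -1.66 and 2.01. In the 20 largest falls the groups did not overlap in 19. Their E. tarda FKC values lay between -7.07 and -2.11, with a median of -3.24, and the PBS values between -2.44 and 1.07. On S. iniae FKC arrays of 12 h the same probes had a median of 3.81 for the rises, within -0.19 to 5.82, and of -1.25 for the falls, within -2.94 to 0.96. Some of these probes may report the same transcript, which the files do not show.

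**Figure D1:**
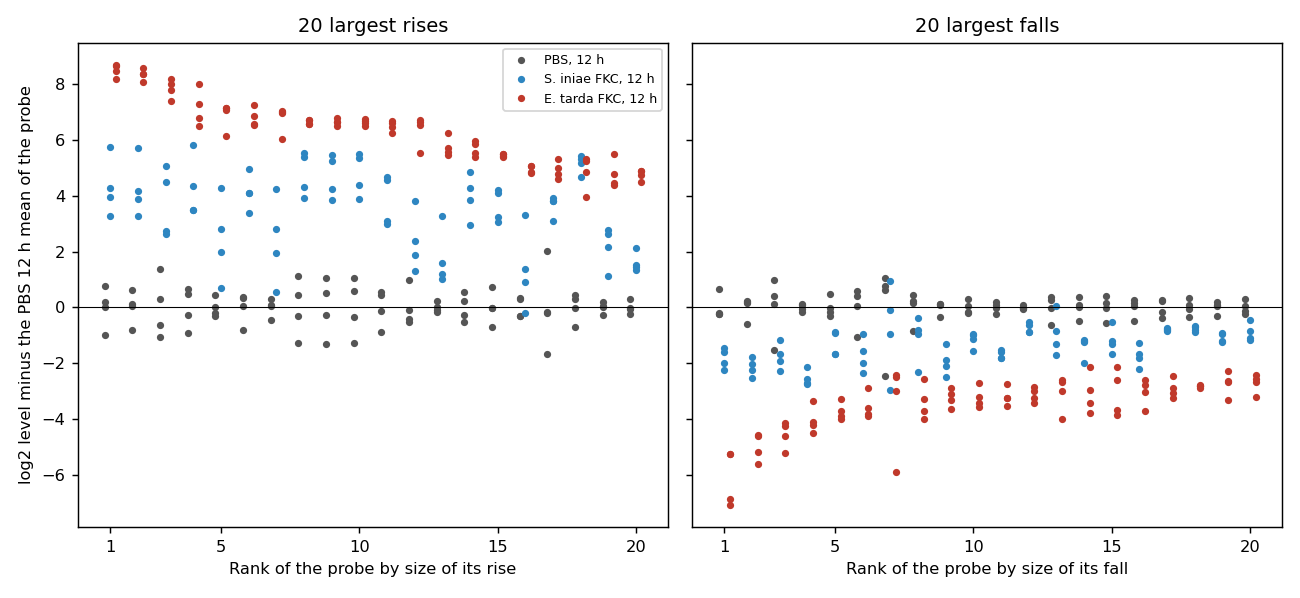
Level of each array minus the probe's PBS 12 h mean (log2, y axis) for the 20 largest rises and the 20 largest falls at 12 h among probes well above background on all 8 arrays, ordered by rank (x axis); each point is 1 array. E. tarda FKC points of the rises lie at 3.95 or more, and S. iniae FKC points lie mostly between PBS and E. tarda FKC.

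The response was similar in size on all 4 E. tarda FKC arrays. Over the 147 probes with a rise of at least 8-fold, the median distance from the PBS mean was 4.32 on replicate 1, 4.32 on replicate 2, 3.97 on replicate 3 and 4.28 on replicate 4, and the PBS arrays of 12 h lay between -0.12 and 0.18. Over the 56 falls of that size it was -3.63, -3.43, -3.67 and -3.65, with the PBS arrays between -0.16 and 0.14. Replicate 3 had the smallest rise and replicate 2 the smallest fall. Since these probes were chosen on the same arrays, the values are a description of spread and not a test. The median SD of a tested probe was 0.352 among the E. tarda FKC arrays and 0.277 among the PBS arrays, both on the log2 scale.

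The same 147 probes on S. iniae FKC arrays of 12 h had array medians of 1.36, 2.59, 2.15 and 1.77 above the PBS mean. Their spread was wider than on the E. tarda FKC arrays, on which the probes were chosen, a choice that can narrow the spread there. The 56 falls had array medians of -1.24, -1.23, -1.52 and -1.41 there. Both preparations are set against the same PBS arrays, so these values stand side by side without a test of likeness. Within slide 2, E. tarda FKC was higher than S. iniae FKC in 120 of the 147 rises and lower in 0, with a median difference of 2.54 on the log2 scale. It was lower in 49 of the 56 falls and higher in 0, with a median difference of -2.23. In that comparison, by limma with the same threshold, the E. tarda FKC level was the higher one in 9.45% of all tested probes and the lower one in 9.33%, in all 2078 probes. A fit of slide 2 alone called 1349. The lists share the E. tarda FKC arrays, so the choice itself favours these directions, also in the full lists that follow. Within slide 2, E. tarda FKC lay in row 1 and S. iniae FKC in row 2, so row and preparation cannot be told apart. Of all 1726 rises, 851 were higher and 4 lower within the slide, and of all 2250 falls, 838 were lower and 5 higher.

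Most strong rises were already large at 6 h, while the strong falls were smaller then. Of the 147 rises of at least 8-fold at 12 h, 136 had also risen against PBS at 6 h, when 14.1% of tested probes rose, and 81 had at least an 8-fold rise then. Their change at 6 h ranged from 0.12 to 7.59 with a median of 3.33, against a median of 4.15 at 12 h. Of the 56 falls, 34 had fallen at 6 h, when 14% of tested probes fell, and 3 had at least an 8-fold fall then. Their median change was -1.36 at 6 h and -3.48 at 12 h. At 6 h, 4 of the 147 rises and 18 of the 56 falls had changed by less than 2-fold. The probes were chosen on the change of 12 h, which raises that value relative to 6 h.

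The change of the E. tarda effect between the times was tested directly as the 12 h minus the 6 h effect, which was called upward in 4.52% and downward in 6.73% of tested probes. It was called upward in 33 and downward in 1 of the 147 rises, and did not pass in 113. In the 56 falls it was called downward in 37 and upward in 0. Both sets were chosen on the change of 12 h, which is part of this difference, so the choice itself favours these directions. The E. tarda FKC arrays of 6 h lay on slide 1 and those of 12 h on slide 2, and a change with time and a change between slides cannot be told apart here. The count of 1245 such calls over all probes was 770 without PBS replicate 3 of 12 h, 783 without E. tarda FKC replicate 2 of 6 h and 747 without E. tarda FKC replicate 3 of 6 h.

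**Figure D2:**
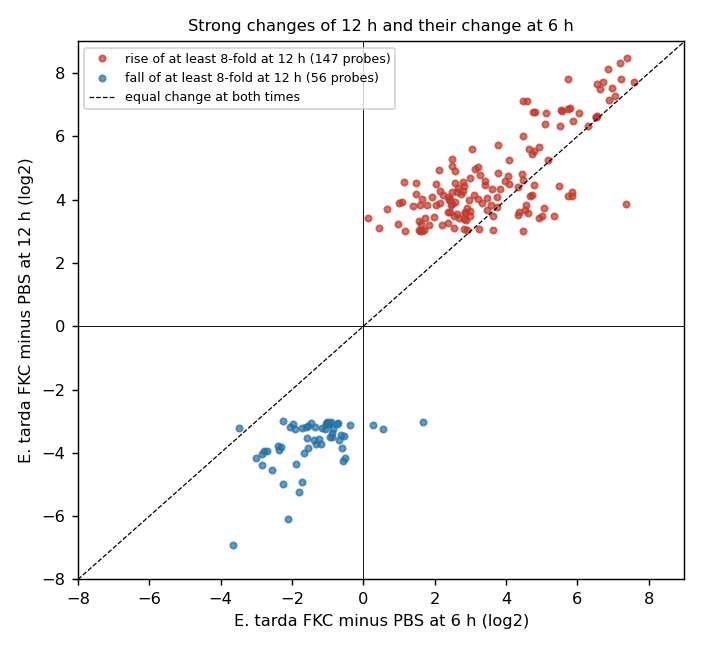
Change against PBS at 6 h (x axis) and at 12 h (y axis), both log2, for the 147 probes with a rise and the 56 with a fall of at least 8-fold at 12 h; each point is 1 probe and the dashed line marks equal changes. Rises scatter along and above the line, with a median of 3.33 at 6 h, and most falls lie far below it, with a median of -1.36 at 6 h.

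Fewer probes were lost from detection than gained. On average 8857 probes were well above background on the E. tarda FKC arrays and 8518.5 on the PBS arrays. The dimmest such probe lay at -4.12 to -3.35 on the E. tarda FKC arrays and at -3.88 to -3.32 on the PBS arrays, and the part of this in the counts was not tested. Of the 7672 probes well above background on all 4 PBS arrays, 53 (0.691%) were so on no E. tarda FKC array. Of the 7552 probes well above background on all 4 E. tarda FKC arrays, 146 (1.93%) were so on no PBS array. Detection on all 8 arrays was found for 6957 probes and on none of the 8 for 3453. Asking for at least 3 of 4 arrays on one side and at most 1 of 4 on the other gave 237 lost and 566 gained. With 1 array fewer to satisfy, the count lost was 94 without E. tarda FKC replicate 2 and 80 without PBS replicate 4, and the count gained was 255 without PBS replicate 2 and 238 without E. tarda FKC replicate 1. E. tarda FKC replicate 1 had the fewest probes well above background and the lowest 75th percentile of signal, 209 against 313 to 436 on the other E. tarda FKC arrays.

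**Figure D3:**
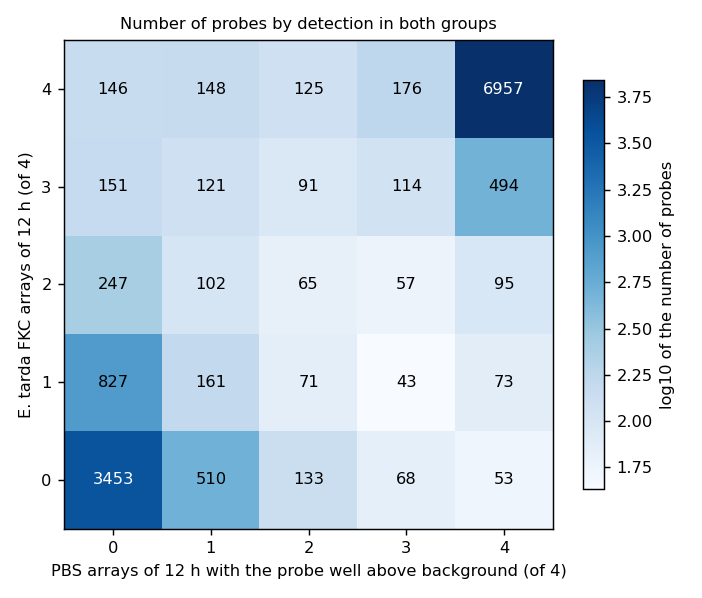
Number of probes by how many of the 4 PBS arrays (x axis) and how many of the 4 E. tarda FKC arrays (y axis) of 12 h had the probe well above background; shading is log10 of the number. The corner of probes gained (0 PBS, 4 E. tarda FKC) holds 146 and the corner of probes lost (4 PBS, 0 E. tarda FKC) holds 53.

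The size of such a change is a bound on the scale of the processed signal. It is the bright group's mean over the dim group's mean. Each dim array was first raised to the lowest signal of any probe well above background on it, where the probe lay below that. All 53 probes lost were called as falls, a direction that the choice fixes. The falls were at least 2.38-fold at the median of these bounds, at least 4-fold in 10 probes and at least 8-fold in 5. Of the 146 gained, 130 were called, and among those the bound was 2.18-fold at the median, at least 4-fold in 37 and at least 8-fold in 25. Most probes lost were dim in PBS already, with a median level of -2.60 on the normalized log2 scale. That level was the 5.32th percentile of the means of probes well above background on all 4 PBS arrays.

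Detection of the probes lost varied between the other groups. Of the 53 probes lost, 32 were well above background on all 3 E. tarda FKC arrays of 6 h and 2 on none of them, and 47 were so on all 4 PBS arrays of 6 h. After S. iniae FKC at 12 h, 15 were well above background on all 4 arrays, 33 on 1 to 3 and 5 on none. By signal, 21 of the 53 had fallen at 6 h, beside 14% of all tested probes, and 2 had risen, beside 14.1%. The 12 h minus 6 h effect was called downward in 27, beside 6.73%, and upward in 0. The probes were chosen on the arrays of 12 h, which enter this difference, so the choice itself favours a downward call. At 6 h itself, 26 probes were lost and 240 gained by the same rule with 3 E. tarda FKC arrays, and 1 was lost and 40 were gained at both times. More probes were well above background on the 6 h arrays, 9583 to 10666 after E. tarda FKC, where the dimmest such probe lay at -4.72 to -4.31. The part of this in the counts at 6 h was not tested. Of the 146 gained at 12 h, 118 were well above background on all 3 E. tarda FKC arrays of 6 h and 5 on none. On the PBS arrays of 6 h, 20 of the 146 were so on all 4, 77 on 1 to 3 and 49 on none. After S. iniae FKC at 12 h, 29 of the 146 were so on all 4 arrays and 35 on none. For these detection counts of probes lost and gained, the shares over all probes are not given here. The counts are thus not set against a general rate.

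The contig probe with the largest bound among those lost was CUST_12615_PI426483990, of contig JFC20493_1_code. Its levels were 0.76, 1.16, 0.71 and 0.62 on PBS replicates 1 to 4 of 12 h and -4.09, -3.88, -3.80 and -5.92 on the E. tarda FKC arrays. The groups were far apart, and E. tarda FKC replicate 4 was the lowest, with none of these 4 spots well above background. The fall was at least 23.9-fold on the scale of the processed signal (limma adjusted p = 6.09e-09). With normexp and quantile normalization the fitted change was -2.47 in place of -5.23 (log2), which is under the bound. On S. iniae FKC arrays of 12 h the levels were 0.03, -0.83, -1.34 and -0.38, all well above background, and the E. tarda FKC arrays were lower within the slide (limma adjusted p = 1.52e-06). At 6 h the probe was at -1.01, -1.39 and -1.08 after E. tarda FKC and fell by 1.79 (SE 0.42, limma adjusted p = 0.00404). The fall was larger at 12 h than at 6 h (limma adjusted p = 0.00154), by an amount that the dim spots of 12 h do not measure. The probe was chosen on the 12 h arrays of E. tarda FKC and PBS, which favours this call and the one within the slide.

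The contig probe with the largest bound among those gained was CUST_9251_PI426483990, of contig JFC12482_1_code. It read 2.95, 3.55, 2.31 and 2.46 on the E. tarda FKC arrays of 12 h and -5.57, -3.96, -5.60 and -4.81 on the PBS arrays, where no spot was well above background. The groups did not overlap, and the rise was at least 80.2-fold on the scale of the processed signal (limma adjusted p = 5.99e-10). With normexp and quantile normalization the fitted change was 4.40 in place of 7.80, again under the bound. The S. iniae FKC arrays of 12 h, at -1.85, -0.52, -1.48 and -1.99, lay between the other groups. Within slide 2 the E. tarda FKC level exceeded that of S. iniae FKC by 4.28 (SE 0.47), with a limma adjusted p of 3.85e-06. At 6 h the levels after E. tarda FKC were 3.33, 1.89 and 2.10, a rise of 5.73 (SE 0.51, limma adjusted p = 1.99e-07). The PBS arrays of 6 h read -3.10, -2.36, -3.19 and -4.52, and the first 3 of these spots were well above background. The difference between the effects of 12 h and 6 h did not pass the test (limma adjusted p = 0.0613). This probe too was chosen on the 12 h arrays of E. tarda FKC and PBS, which favours the call within the slide.

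Some probes carry a GenBank entry as their name in place of a contig. There were 412 such probes for 409 entries, of which 320 were tested, with 218 of these measured on all 8 arrays. At 12 h 77 rose (24.1%) and 71 fell (22.2%), beside 15.6% and 20.3% of all probes tested. With arrays scaled to their median, 79 rose and 52 fell. Their median absolute change was 0.81 on the log2 scale, against 0.53 over all probes tested, and their median change was -0.01 against -0.12.

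Strong rises were more frequent among them than over the whole array. Their median PBS level was also higher, 0.38 against -1.40 over all probes tested, and the part of this in the shares was not tested. Some entries may report the same transcript, which the files do not show. A rise of at least 8-fold was found in 23 of the 320 (7.19%), beside 1.33% of all tested probes, and a fall of that size in 2 (0.625%), beside 0.506%. Of the 41 probes that rose at least 32-fold, 14 carried a GenBank name. Of the 23, 12 were measured on all 8 arrays, so the folds of the other 11 are not measured sizes. The entries are a chosen set of sequences, and how they were chosen for the array is not given in the sources used here. What the entries encode is not given in the files.

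**Figure D4:**
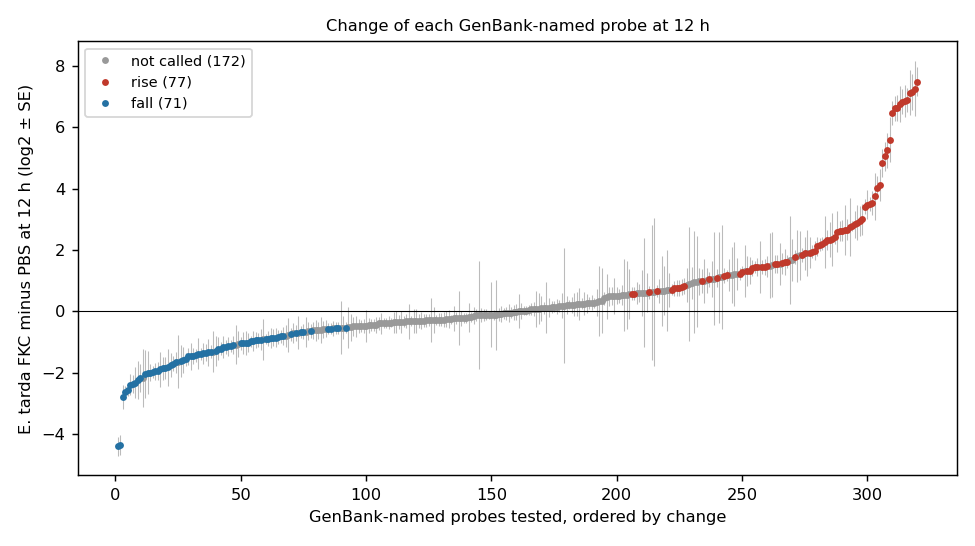
Change at 12 h (log2, y axis) of the 320 GenBank-named probes tested, ordered from the largest fall to the largest rise (x axis), with vertical lines of 1 SE; colours mark the 77 called rises, the 71 called falls and the 172 not called. The rises end in a steep tail that reaches 7.48, and the falls reach -4.40.

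The 23 strong GenBank rises were high on each E. tarda FKC array, with array medians of 6.33, 6.06, 6.23 and 5.24 above the PBS mean, and PBS arrays between -0.12 and 0.28. The 23 are part of the 147 rises of at least 8-fold. They were chosen on these same arrays of 12 h, so these medians describe them and are not a test. The choice also favours the upward calls between the times and the higher calls within the slide. At 6 h the array medians were 5.72, 4.77 and 4.97. By then 22 of the 23 had risen, beside 136 of the 147 and 14.1% of all tested probes. The difference between the times was called upward in 2, beside 33 of the 147 and 4.52% of all tested probes. It was called downward in 0, beside 1 of the 147 and 6.73%. After S. iniae FKC at 12 h the array medians were 2.33, 3.38, 3.68 and 2.39. E. tarda FKC was higher within the slide in 18 of the 23, beside 120 of the 147 and 9.45% of all tested probes. Among all GenBank calls of 12 h, 51 rose and 26 fell at both times, 26 rises and 45 falls were called at 12 h and not at 6 h, and 0 changed direction. Over the whole array, 857 of the 1726 rises and 713 of the 2250 falls of 12 h had the same call at 6 h, so the 26 of 71 GenBank falls were near the general share. The opposite call at 6 h was found in 28 of the 1726 rises and 65 of the 2250 falls. The count of 0 GenBank probes that changed direction was thus near the general share too. The entries with 2 probes each, 3 in number, gave the same call on both probes in every case, with 1 entry falling by 0.56 on both and the other 2 entries not called.

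Of the GenBank probes well above background on all 8 arrays, CUST_156_PI426483993, of entry EF530037, rose most. It read -2.32, -1.69, -2.43 and -2.10 on the PBS arrays of 12 h and 5.0, 3.98, 4.93 and 4.98 on the E. tarda FKC arrays. Every E. tarda FKC array was far above every PBS array, with replicate 2 the lowest of the 4. The rule of choice asked for no overlap. Choosing the largest rise also favours E. tarda FKC of 12 h in the comparisons that follow. The rise was 6.86 (SE 0.53, limma adjusted p = 9.53e-09) or 116-fold, from -2.13 ± 0.33 (SD, n = 4) to 4.72 ± 0.50 (SD, n = 4), and it was 5.72 with normexp and quantile normalization. The rise at 6 h was 5.73 (SE 0.57, limma adjusted p = 7.85e-07), and the difference between the times, 1.13 (SE 0.78), did not pass the test (limma adjusted p = 0.368). The S. iniae FKC arrays of 12 h were uneven, at -1.42, 0.68, 2.12 and -0.15, and E. tarda FKC was higher than these by 4.41 (SE 0.53, limma adjusted p = 9.25e-06).

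The GenBank probe with the largest fall by the same rule was CUST_232_PI426483993, of entry AB073785. PBS arrays of 12 h read 0.56, 0.40, 0.84 and 0.94, and E. tarda FKC arrays -2.35, -1.93, -1.61 and -1.85. The groups did not overlap and both were well above background throughout, as the rule of choice required. Choosing the largest fall also favours the differences from 6 h and from S. iniae FKC that follow. The fall was 6.14-fold, a change of -2.62 (SE 0.21, limma adjusted p = 1.17e-08), and the change was -1.91 with normexp and quantile normalization. At 6 h the change was -1.58 (SE 0.22, limma adjusted p = 3.65e-05), and the effect was larger at 12 h by a difference of -1.04 (SE 0.30, limma adjusted p = 0.035). The S. iniae FKC arrays of 12 h lay between the groups at -0.43, -0.56, -0.42 and -0.70, and E. tarda FKC was lower within the slide by a change of -1.41 (SE 0.21, limma adjusted p = 7.85e-05).

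**Figure D5:**
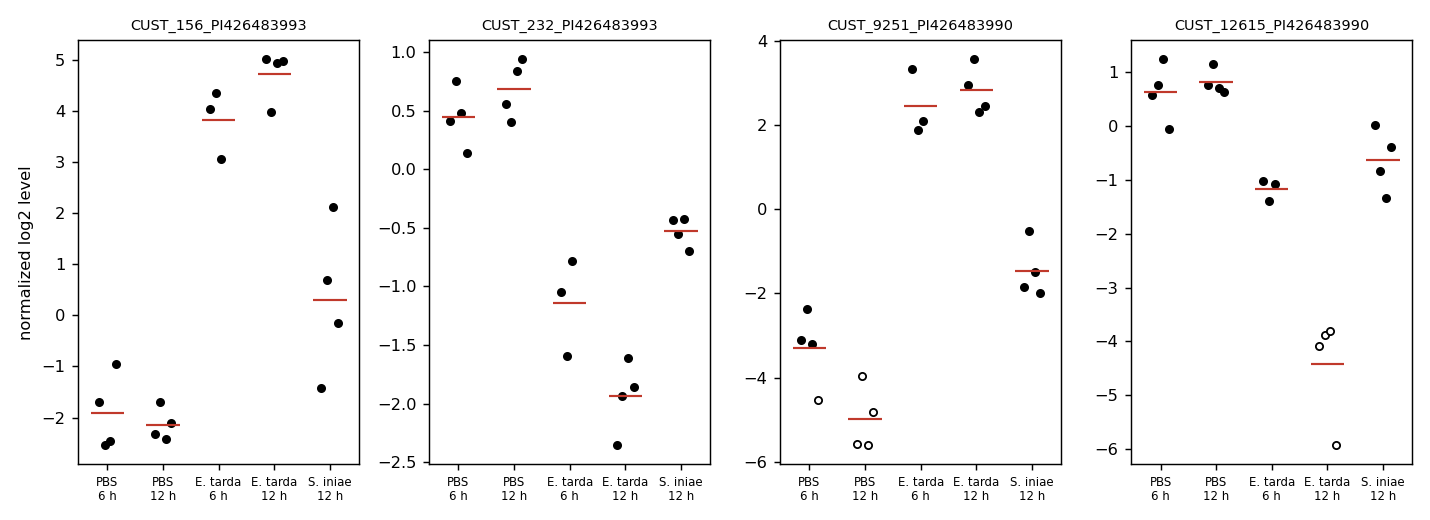
Normalized log2 level (y axis) of the 4 named probes on each array of PBS and E. tarda FKC at 6 h and 12 h and of S. iniae FKC at 12 h; filled points are well above background, open points are not, and lines are group means. In each panel the E. tarda FKC arrays of 12 h lie apart from the PBS arrays of 12 h, with S. iniae FKC between them. The choice of the probes favours that separation.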

How the data were processed

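The deposited scanner files hold the intensity of each spot, per the file headers and column names background-subtracted and detrended within the array by Feature Extraction 10.7.3.1, while the submitters' processing notes name version 9.5.3.1. Spots flagged as outliers were left out, the 75th percentile of the array was subtracted on the log2 scale, and spots of a probe were averaged. Probes well above background on at least 3 arrays were tested. The 22 arrays were fitted with 1 mean for each of 6 groups in limma 3.58.1 (R 4.3.3), with lmFit, eBayes and Benjamini-Hochberg adjustment over all 11066 probes, after the code was tested on simulated data. Fits left out 45 missing values of the 8 arrays. The authors' deposited log2 table, an alternative, lay within 0.1 of the log2 signal centred on the PBS median of the same time for 99.99% of its values. Its column medians ran from -0.274 to 0.0274, and its scale and direction matched the scanner values.

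Named probes were the largest GenBank rise and fall among called probes well above background on all 8 arrays without overlap, and the contig probes with the largest bounds. Lists and members were chosen with earlier results of these data known. Precision is limited by the number of arrays. Gene lists could not be matched and were not tested. Alternatives covered background correction, normalization, filters, samples in the fit, a replicate block, variance moderation, array weights, outlier spots and leaving out each array.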

Additional observations from a re-analysis of the deposited data

Results flagged for a closer look

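In CUST_156_PI426483993 the E. tarda FKC array of replicate 2 at 12 h lay apart from the other 3 arrays of its group, at 3.98 on the normalized log2 scale. In CUST_12615_PI426483990 replicate 4 of the same group lay apart, at -5.92, where the spot was not well above background. Chance sets about 1 in 20 groups of this size apart by the criterion used, the ratio of a gap to the range. The change from PBS after E. tarda FKC was unequal at 12 h and 6 h in 1245 probes, among them CUST_232_PI426483993 by -1.04 and CUST_12615_PI426483990 by a fitted -3.44, all by limma with an adjusted p under 0.05, with time and slide not to be told apart. The fitted value of CUST_12615_PI426483990 rests on 4 E. tarda FKC spots of 12 h that were not well above background and is not a measured size.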

How the results depend on the processing

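The 4 named probes kept their direction and stayed past the threshold in every alternative that could test them, but normexp with quantile normalization moved their log2 changes from 6.86 to 5.72 (CUST_156_PI426483993), -2.62 to -1.91 (CUST_232_PI426483993), 7.80 to 4.40 (CUST_9251_PI426483990) and -5.23 to -2.47 (CUST_12615_PI426483990). Leaving out 1 array moved the count of 3976 calls at 12 h between 3373 and 3845 and the count of 203 calls of at least 8-fold between 194 and 208. Normexp with quantile normalization gave 79 calls of at least 8-fold and 2028 differences between the times, and a filter for all 22 arrays, which tests fewer probes, gave 86 of the former. Array weights gave 2092 differences between the times, and leaving out 1 array gave 747 to 1600. On slide 2 alone, 1349 probes differed between the preparations, against 2078 in the fit of all arrays. Probes lost ranged from 57 to 94 and probes gained from 158 to 255 without 1 array, and 3 of 4 arrays against at most 1 of 4 gave 237 and 566. The replicate numbers are shared by the groups, but same-numbered arrays of E. tarda FKC and PBS deviated together at correlations of -0.154, -0.137, -0.013 and -0.116, so they were not taken as pairs. With a replicate block the 2 groups alone gave 2550 calls, 1363 of them falls, the difference between the times 612 and the preparations within the slide 821. For the other changes the cause was not tested. Of the changes of at least 8-fold, 71 of 147 rises and 16 of 56 falls were measured on all 8 arrays. The dim side was well above background on no array in 52 and 15, and on some arrays in 24 and 25. Alternatives for the spike-in probes and without the arrays of 6 h were chosen after seeing the data.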
